A study of Drosophila melanogaster with 2 samples.

Results

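The genes of the small nucleolar RNAs (snoRNAs) and the genes that carry them in their introns were read against the binding profile of the CG8388 product in the fly embryo. The profile is a ChIP-seq experiment, in which DNA held by a protein is precipitated and sequenced, on whole Drosophila melanogaster embryos aged 0 to 14 h with both sexes pooled. The embryos came from a transgenic line that stably expresses CG8388 with GFP at its C-terminal end, and the precipitation used an antibody to GFP. Both libraries, labelled biological replicates 2 and 3, belong to this 1 group, so the design has no second condition, and no untagged or input library was analysed here. The members are all 269 genes of Ensembl biotype snoRNA on dm6, of 18358 annotated genes with transposable elements left out, and their symbols begin with snoRNA or with scaRNA (for guides of the Cajal body, a nuclear compartment). For each gene, peak summits within 500 bp and within 1000 bp of its start were counted in the 6075 peaks that passed the authors' reproducibility threshold (the thresholded list) and in the 30000 peaks of the pooled libraries (the pooled list). It was then asked whether the gene lies in an intron of a host whose own transcription start site (TSS) has a summit within 500 bp. Ranks are by the signal that the authors gave each peak within a list, and rank 1 is the strongest.

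A snoRNA pairs with a target RNA and directs an enzyme to 1 of its bases. Box C/D snoRNAs guide 2′-O-methylation by fibrillarin, and box H/ACA snoRNAs guide the conversion of uridine to pseudouridine by dyskerin, which is Nop60B in flies. Most targets lie in ribosomal RNA, and scaRNAs act on spliceosomal RNAs. Fly symbols carry the class, with Me for methylation guides and Psi for pseudouridylation guides, followed by the target RNA and the base. In flies most snoRNAs are cut from spliced introns of longer transcripts, so their supply starts at the promoter of the host gene. Hosts include ribosomal protein genes and Uhg genes, noncoding genes whose introns carry runs of snoRNAs.

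Sequences of snoRNA genes show the boxes after which the classes are named. These 4 are shown because each lies within 500 bp of a thresholded summit. They are Me18S-A1576 (chr2L:9894795-9894907, minus strand), U49:66Da (chr3L:8601473-8601552, plus strand), Psi18S-1275 (chr3R:9778398-9778537, plus strand) and Psi28S-1232 (chrX:6743675-6743815, minus strand), read from the RefSeq copy of the dm6 assembly. Capitals mark TGATGA near the 5′ end and CTGA near the 3′ end in the C/D guides, and ACA near the 3′ end in the H/ACA guides.
snoRNA:Me18S-A1576: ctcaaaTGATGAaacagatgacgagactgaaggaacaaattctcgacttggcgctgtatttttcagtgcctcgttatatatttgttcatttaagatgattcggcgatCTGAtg
snoRNA:U49:66Da: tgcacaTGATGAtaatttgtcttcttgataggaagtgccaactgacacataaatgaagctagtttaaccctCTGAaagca
snoRNA:Psi18S-1275: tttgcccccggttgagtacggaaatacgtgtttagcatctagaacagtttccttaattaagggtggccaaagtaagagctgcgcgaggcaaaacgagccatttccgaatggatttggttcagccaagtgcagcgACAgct
snoRNA:Psi28S-1232: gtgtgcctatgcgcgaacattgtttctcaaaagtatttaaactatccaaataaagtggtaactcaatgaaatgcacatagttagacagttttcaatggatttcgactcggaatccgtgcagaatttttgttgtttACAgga

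In most genes with a C/D or an H/ACA symbol the boxes followed the symbol. TGATGA in the first 25 bases together with CTGA in the last 20 was found in 76 of the 109 genes with a C/D symbol (69.7%) and in 0 of the 114 with an H/ACA symbol. ACA in the last 10 bases was found in 110 of the H/ACA genes (96.5%) and 8 of the C/D genes (7.34%). Median gene lengths were 79 bp for C/D and 140 bp for H/ACA. A further 16 genes are scaRNAs and the symbols of 30 give no class. A run of 50 bases is shared with another member in 21 of the 269 genes, and 4 are identical to another over their whole length, so peaks at these copies depend on how reads that fit several places were treated, which is not given in the sources used here.

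Promoters of hosts show where the summits sit relative to the snoRNA. The 6 host windows below are shown for their peaks, and the last, of the free-standing U3 gene U3:9B, for a summit at a snoRNA gene's own start. Each runs from 150 bases before the start (200 for CG1142) to 20 bases from the start on, and is read 5′ to 3′ on the strand of the gene. The start used is the TSS nearest to the summit, which in RpS29 lies downstream of the outermost gene start (9778042). The windows are Uhg2 (chr2L:9894984-9895153, minus strand), RpL14 (chr3L:8600856-8601025, plus strand), RpS7 (chr3R:30209001-30209170, minus strand), RpS29 (chr3R:9777947-9778116, plus strand), RpL17 (chrX:6744219-6744388, minus strand), CG1142 (chr3R:7473762-7473981, minus strand) and U3:9B (chrX:10347975-10348144, plus strand). A single capital is the summit base, and longer runs in capitals are motif matches. In RpS29 the last run joins a motif 7 match to a TCT match, and the summit base lies inside it.
Uhg2: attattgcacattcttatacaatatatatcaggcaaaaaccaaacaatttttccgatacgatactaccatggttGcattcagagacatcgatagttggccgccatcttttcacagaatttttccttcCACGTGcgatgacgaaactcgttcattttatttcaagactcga
RpL14: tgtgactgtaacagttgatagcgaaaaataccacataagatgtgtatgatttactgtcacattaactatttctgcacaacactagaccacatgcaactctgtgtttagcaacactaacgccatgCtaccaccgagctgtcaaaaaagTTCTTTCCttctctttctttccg
RpS7: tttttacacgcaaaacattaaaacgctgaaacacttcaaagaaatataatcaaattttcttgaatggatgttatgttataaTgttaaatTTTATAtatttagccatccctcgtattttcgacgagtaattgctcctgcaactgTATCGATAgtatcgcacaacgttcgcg
RpS29: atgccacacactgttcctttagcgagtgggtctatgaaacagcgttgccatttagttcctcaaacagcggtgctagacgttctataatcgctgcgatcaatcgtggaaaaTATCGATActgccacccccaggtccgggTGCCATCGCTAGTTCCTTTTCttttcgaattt
RpL17: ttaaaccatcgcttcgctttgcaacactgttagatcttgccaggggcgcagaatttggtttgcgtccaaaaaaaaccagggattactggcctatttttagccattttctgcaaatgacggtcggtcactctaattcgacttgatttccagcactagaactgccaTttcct
CG1142: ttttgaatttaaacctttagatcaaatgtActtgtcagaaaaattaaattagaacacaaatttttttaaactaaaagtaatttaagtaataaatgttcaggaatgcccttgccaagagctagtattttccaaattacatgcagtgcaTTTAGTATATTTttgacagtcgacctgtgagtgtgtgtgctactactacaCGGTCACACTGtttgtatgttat
snoRNA:U3:9B: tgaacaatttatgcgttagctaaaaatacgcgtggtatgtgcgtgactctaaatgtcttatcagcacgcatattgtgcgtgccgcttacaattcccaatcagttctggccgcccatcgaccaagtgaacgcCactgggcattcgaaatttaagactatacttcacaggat

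snoRNA genes had a thresholded summit within 500 bp of their start less often than other genes by share, and as often within 1000 bp. Within 500 bp, 16 of 269 genes (5.95%; Wilson 95% interval 3.69 to 9.44) had a thresholded summit, against 15.5% of all other genes. Within 1000 bp the count was 53 (19.7%; 15.4 to 24.9), against 19.8% of other genes, so the share in the wider window was that of the background. In the pooled list the shares were 17.5% (13.4 to 22.5) against 41.3% within 500 bp, and 37.5% (32.0 to 43.5) against 49.5% within 1000 bp. Other genes of small RNAs gave 23 of 290 tRNA genes (7.93%) and 4 of 32 snRNA genes (12.5%) within 500 bp in the thresholded list. Within 1000 bp they gave 44 (15.2%) and 6 (18.8%). The tRNA share within 500 bp lies inside the snoRNA interval and the snRNA share above it, so a low share is not particular to snoRNA genes. Intervals cover counting error over genes only, and genes that share a peak or a host are not independent. As no untagged library was analysed here, CG8388 occupancy and tag-independent signal cannot be told apart.

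Every one of the 16 nearest summits lay upstream of the snoRNA, between -494 and -41 bp with a median of -344 bp. Within 1000 bp, 48 of 53 lay upstream (90.6%; 79.7 to 95.9). Upstream summits are not particular to snoRNA genes. Thresholded summits within 500 bp of a TSS of 2787 protein-coding genes without a snoRNA gene were mostly upstream of it too (median -145 bp, quartiles -236 and -85 bp). The 16 genes share 13 peaks and the 53 share 35. Of the 269 genes, 243 (90.3%) lie wholly in a same-strand intron, of 92 host genes in all, and the other 26 do not. Of the 11 intronic genes among the 16, 11 had that same peak within 500 bp of a host TSS, and in 11 the summit was closer to the host TSS than to the snoRNA. Of the 46 intronic genes among the 53, the figures were 39 and 41. The 5 hostless genes among the 16 also have their summit upstream, and the part of position inside a host in the upstream pattern was not tested.

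**Figure D1:**
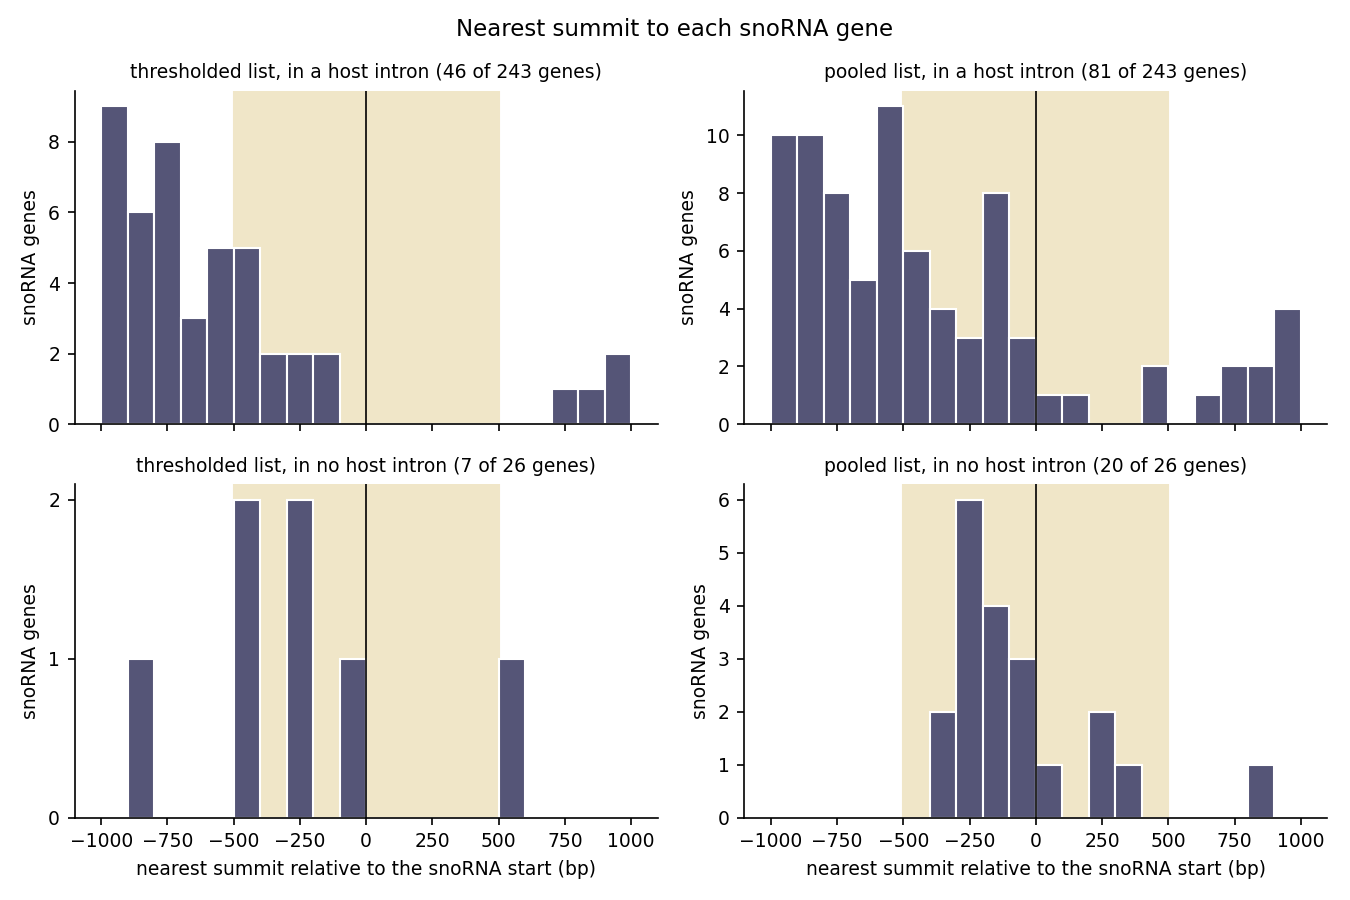
Histograms of the distance in bp from each snoRNA start to the nearest summit within 1000 bp (negative is upstream; bars count genes in 100 bp steps; shading marks 500 bp to each side), for the thresholded list (left) and the pooled list (right), for genes in a host intron (top) and in none (bottom). Intronic genes have few summits close by and more of them farther upstream, while 19 of the 26 genes with no host have a pooled summit within 500 bp.

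The hosted members of the 16 divide between Uhg hosts and ribosomal protein hosts. Me18S-A1576, a C/D guide for 18S rRNA, starts 96 bp inside Uhg2, and the summit lies 172 bp before it and 76 bp before the Uhg2 TSS. That peak had rank 3005 in the thresholded list, 3783 in replicate 2 and 2614 in replicate 3. In Uhg4 the first snoRNA, Psi28S-2949, starts 99 bp from the TSS and the next, Or-aca5, 412 bp from it, and 1 peak serves both, with summits at -181 and -494 bp from their starts. The Uhg4 peak (2R, 9094997 to 9095367) ranked 477 in the thresholded list, 504 in replicate 2 and 494 in replicate 3, so both libraries placed it alike.

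Of the 11, 7 are in ribosomal protein genes and 1 is in introns of both RpS6 and CR33222. U49:66Da, 467 bp into RpL14, had its summit at -493 bp, on the RpL14 peak of rank 666 (758 in replicate 2, 590 in replicate 3). Psi28S-1232 in RpL17 had its summit at -409 bp (rank 1813; 3030 and 1290 in replicates 2 and 3), Psi18S-1275 in RpS29 at -304 bp (2909; 5689 and 1694) and Me18S-C1096 in RpL3 at -483 bp (2564; 4781 and 1489). These 4 peaks stood higher in replicate 3. Psi18S-920, 133 bp into RpL10Ab, had its summit at -383 bp (rank 3017; 1667 and 4706), which stood higher in replicate 2. Me28S-A774b in RpS12 had it at -291 bp (4047; 3593 and 2256) and Psi28S-2648 in RpL36A at -491 bp (4215; 6331 and 3169). Or-aca2 starts 99 bp into the noncoding gene CR33222, and its peak, at -221 bp, has rank 4887 and lies nearer to the TSS of RpS6 (93 bp).

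The window edge cuts through this series of distances. Just inside 500 bp stood Psi28S-2648 (491 bp), U49:66Da (493 bp) and Or-aca5 (494 bp). Just outside stood Or-CD11a in RpL28 (508 bp), the hostless Or-CD13 (511 bp) and Me18S-G1620 in Uhg2 (535 bp). Among genes with a summit within 1000 bp only, the strongest peak was that at CG1142 (rank 73; 99 in replicate 2 and 62 in replicate 3), 730 bp before MeU5-C46, a methylation guide for U5 spliceosomal RNA. Next came Me28S-G3255a in Uhg4 at -805 bp, Me18S-G1358a in drn at -790 bp, Irbp-a in Irbp at -887 bp and U49:66Db in RpL14 at -968 bp. RpS20 holds Psi18S-1295 and Psi28S-2562 (-578 and -894 bp, rank 789), RpL13A holds Me28S-U2134b and Me28S-U2134a (-762 and -951 bp, rank 930), and RpL30 holds Me28S-A2113 (-581 bp, rank 1065). Of these 10 genes, the drn guide alone has a summit far from its host TSS (11611 bp).

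Only 7 intronic genes had a thresholded summit within 1000 bp that was not within 500 bp of a host TSS. They were lola-a and lola-b in lola, a BTB transcription factor gene (706 and 951 bp downstream of their starts, rank 2884), Psi28S-1175c and Or-aca1 in RpS16 (997 and 838 bp downstream, rank 5471, at Vps20), Me18S-G1358a in drn (rank 509), Psi18S-1347a in pAbp, the poly(A)-binding protein gene (-922 bp, rank 2327), and Me28S-U3344a in Stt3A (-923 bp, rank 3119). The pAbp summit lay 505 bp from its host TSS, just past the limit.

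Position in the host ordered the counts. Distance was taken from the nearest host TSS, while a summit at any TSS of a host counted, so these can be different TSSs. Of snoRNA genes in a host with such a thresholded summit, 23 start within 500 bp of the nearest host TSS. Of these, 9 had a thresholded summit within 500 bp of their own start (39.1%; 22.2 to 59.2) and 18 had one within 1000 bp. Among those 500 to 1000 bp in, the counts were 2 and 21 of 38. Farther in, 0 of 25 (1000 to 1500 bp), 0 of 23 (1500 to 2500 bp) and 0 of 38 (over 2500 bp) had one within 500 bp, which allows shares of up to 12%, 13% and 7.89%, and 2, 1 and 3 had one within 1000 bp. Where no TSS of a host had one, 0 of 8, 12, 17, 25 and 34 genes in the same 5 distance classes had a thresholded summit within 500 bp. Within 1000 bp, 1 gene of the 17 did. The median intronic snoRNA starts 1470 bp from its nearest host TSS (884 bp in ribosomal protein hosts, 2446 bp in other protein-coding hosts and 1201 bp in noncoding hosts). No test of distance was made, since the windows and the distances are geometrically tied.

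Counted through the host promoter, the picture turned. In all, 147 of the 269 snoRNA genes (54.6%; 48.7 to 60.5), or 60.5% of the 243 in an intron, lay in a host with a thresholded summit at a TSS, and 198 in a host with a pooled one. Each host counts once below, because its snoRNA genes share the promoter. Of 92 hosts, 56 had a thresholded TSS summit (60.9%; 50.7 to 70.2), against 20.1% of protein-coding genes without a snoRNA gene and 22.0% of those with an intron. In the pooled list, 71 hosts (77.2%; 67.6 to 84.6) had one, against 46.8%. Hosts of 1 snoRNA gene gave 30 of 53 and hosts of several 26 of 39. Of the intronic genes, 11 have a pair of hosts, and RpS6 and CR33222 share 1 peak, so the 56 hosts have 55 distinct peaks.

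Ribosomal protein hosts made up much of this. Of 29 such hosts, 27 (93.1%; 78.0 to 98.1) had a thresholded TSS summit, and 66 of the 70 snoRNA genes whose nearest host TSS is that of a ribosomal protein gene lay in a host with such a summit. Ribosomal protein genes with no snoRNA gene gave 46 of 59, or 78.0%, and the interval of the hosts reaches down to that share. RpL15, which has no thresholded TSS summit, had a pooled one of rank 10710. Other protein-coding hosts gave 25 of 52 (48.1%; 35.1 to 61.3), against 19.9% of protein-coding genes that neither carry a snoRNA gene nor encode a cytosolic ribosomal protein. Noncoding hosts gave 4 of 11 (36.4%; 15.2 to 64.6), against 7.46% of noncoding RNA genes. Both intervals lie above their background shares, but a summit counted here even where it is nearer to another gene. Among the 4 noncoding hosts, the summit of CR33222 is nearer to RpS6 (93 bp) and that of Uhg8 to CG5199 (116 bp). The CR33222 peak is also the one counted for RpS6 among the ribosomal protein hosts.

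**Figure D2:**
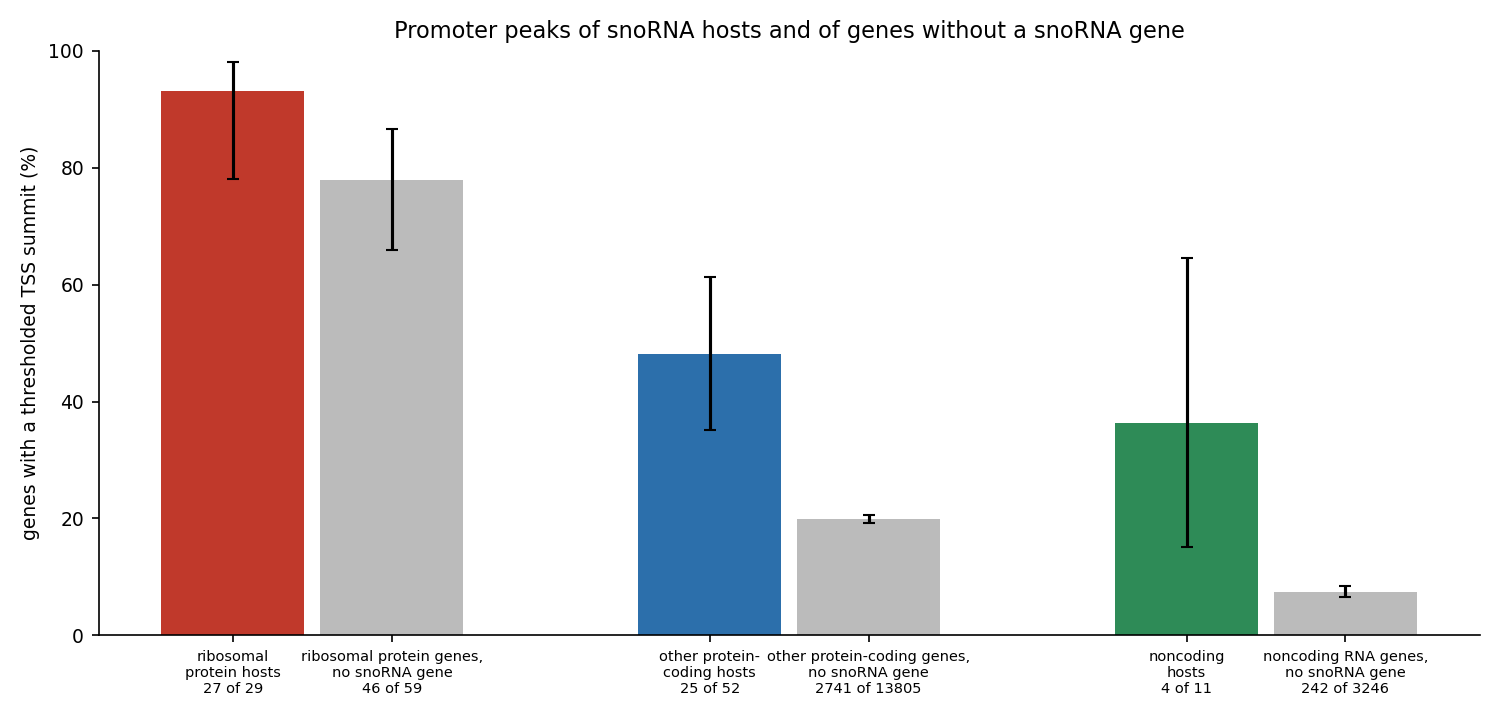
Share of genes (%) with a thresholded summit within 500 bp of a TSS, for the 3 classes of snoRNA hosts (coloured bars) and for genes of the same kind that carry no snoRNA gene (grey bars), with Wilson 95% intervals as lines. Hosts stand higher in each pair, and the intervals of the ribosomal protein pair overlap.

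Genes with several TSSs have more chances to be counted. Among other protein-coding hosts with 1 TSS, 9 of 24 had a thresholded summit (37.5%; 21.2 to 57.3), and 15.3% of protein-coding genes with 1 TSS and no snoRNA gene did. With 2 or more TSSs the figures were 16 of 28 (57.1%; 39.1 to 73.5) and 33.5%. Both intervals lay above the matched share. Shared promoters matter too: the strongest peak was nearest to a TSS of the host in 46 of the 56 hosts, and 29 of the 56 had a TSS of another gene within 500 bp of the summit. How active each promoter is in these embryos was not measured, and its part in the difference between hosts and other genes was not tested.

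Among the host peaks CG1142 led (rank 73, signal 1804), followed by Stt3A (rank 111), which encodes a catalytic subunit of the oligosaccharyltransferase and whose summit is nearer to bves (212 bp). Msp300, a giant nuclear envelope protein gene of muscle, had rank 447, but the peak belongs to a TSS far upstream, and the snoRNA gene is 50634 bp from its nearest TSS. Uhg4 (477), CG12316 (496) and Irbp (572), the Ku70 homologue, followed. Then came RpL14 (666), RpS20 (789), RpS7 (836), RpL13A (930), drn (931) and Dys (1031), the dystrophin gene. All 12 had a rank of 1994 or better in each replicate, with RpS7 (499 and 1971) and drn (554 and 1994) the least alike between replicates 2 and 3.

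Hosts of many snoRNA genes were divided. Arpc2, an Arp2/3 complex subunit gene with 17 snoRNA genes, had rank 4322, but the summit lay 27 bp from CG10949, and the replicates placed it at 2651 and 10759. RpS5a with 14 had rank 3618 (3401 and 4268 in replicates 2 and 3). The translation regulator gene kra with 8 had rank 4828, on a summit nearer to SecS. Nop60B, which encodes the pseudouridine synthase itself and carries 7, had rank 3815 (2825 and 5842). RpS7 also carries 7. Ranks of hosts with 4 or 5 were 1247 for RpL28, 1399 for lola, 1663 for RpS16, 1813 for RpL17, 2564 for RpL3 and 3005 for Uhg2. No thresholded TSS summit was found at dom (15 snoRNA genes), which encodes a chromatin-remodelling ATPase, Sf3b3 (9), a splicing factor gene, Hrb98DE (7; pooled rank 11017), an hnRNP gene, CG10576 (5) or the noncoding CR45184 (5), which overlaps Sf3b3.

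The Uhg genes, noncoding genes known for their snoRNAs, were divided as well. Uhg4, Uhg8 and Uhg2 had thresholded ranks of 477, 1592 and 3005, though the Uhg8 summit is nearer to CG5199 (116 bp). Their replicate ranks, replicate 2 first, were 504 and 494, 1073 and 3185, and 3783 and 2614. Uhg1, with 16 snoRNA genes, had only a pooled summit, 303 bp before its TSS (rank 9736). Uhg5, with 11, had one 172 bp after its TSS (rank 8234), and Uhg3, with 3, had one at -5 bp of rank 24263. Uhg7 had none within 500 bp in either list. The number of snoRNA genes carried did not order these genes by rank.

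**Figure D3:**
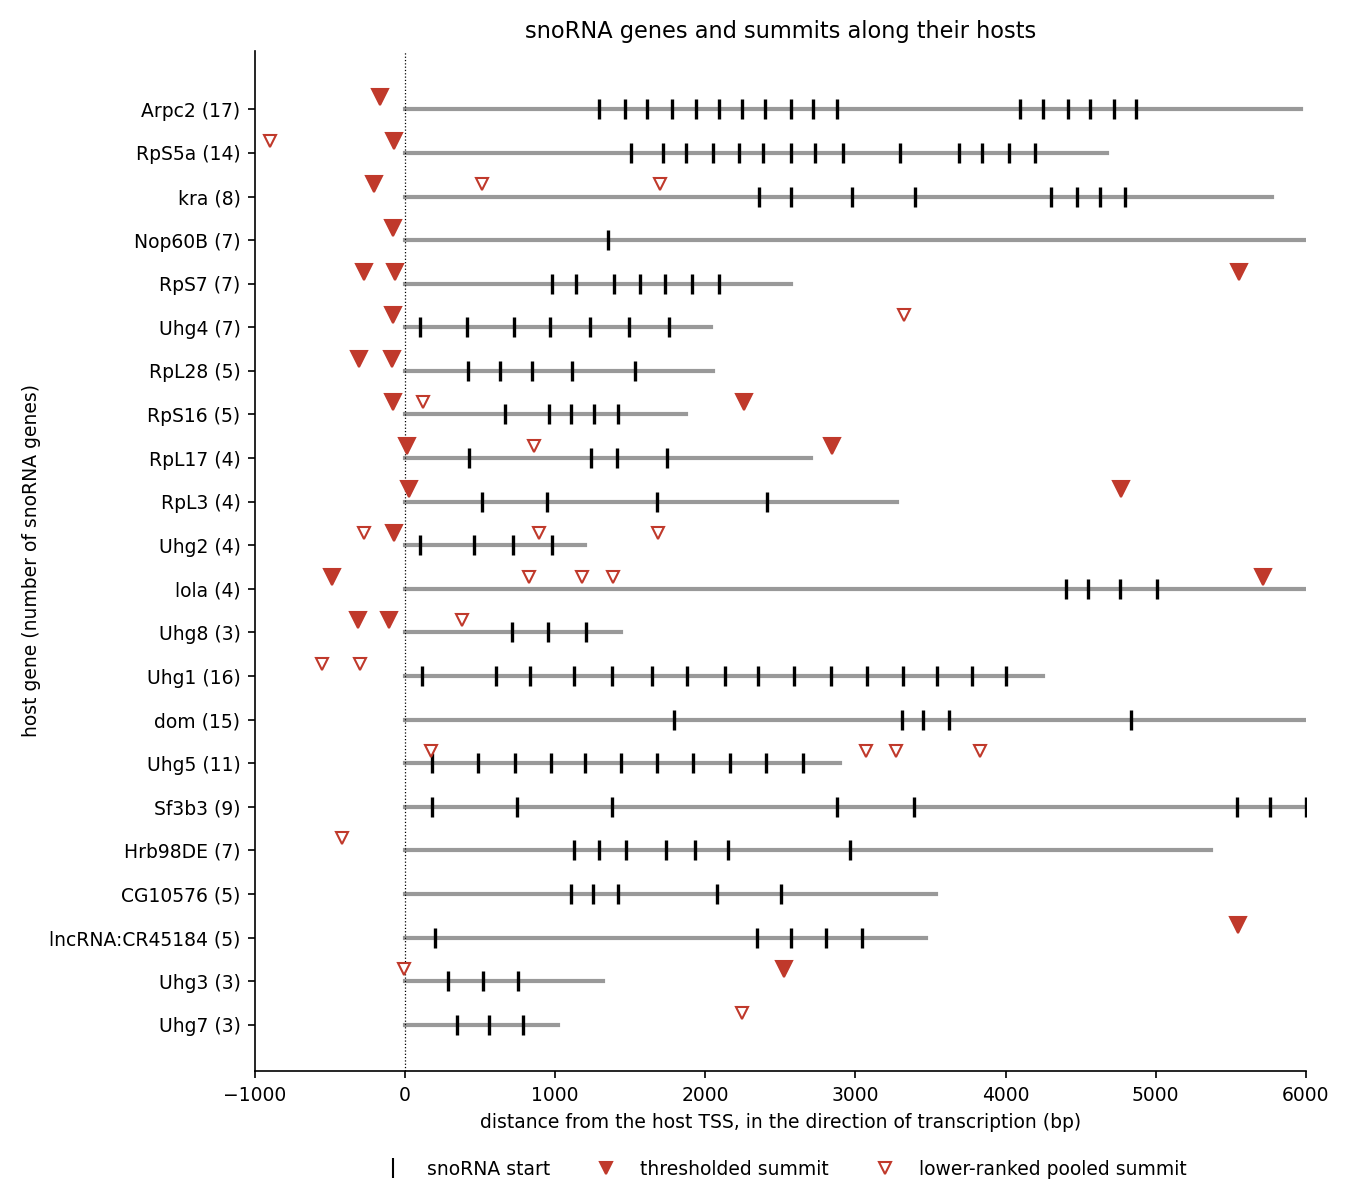
Host genes with 4 or more snoRNA genes and all Uhg hosts (rows; number of snoRNA genes in brackets), drawn from the TSS nearest the thresholded summit or, with none, from the most upstream TSS used by a member, in bp along the direction of transcription; bars are host genes, ticks snoRNA starts, filled triangles thresholded summits and open triangles lower-ranked pooled summits. The rows from Arpc2 to Uhg8 have a thresholded summit within 500 bp of a TSS, the rows from Uhg1 to Uhg7 have none, and members beyond the axis are not drawn.

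Host peaks held their place in both libraries to differing degrees. Counted by host, the peaks of 50 of the 56 overlapped 1 of the first 6075 peaks of replicate 2, those of 51 did so for replicate 3, and those of 46 for both (82.1%; 70.2 to 90.0). The peak that RpS6 and CR33222 share counts for each. Over the whole thresholded list, 4490 of 6075 peaks overlapped a leading peak of both, a share that lies inside this interval. The thresholded list was built from the same libraries, so this overlap is no independent check. Replicate 3 ranked the peak higher in 18 of 27 ribosomal protein hosts (66.7%; 47.8 to 81.4), 9 of 24 other protein-coding hosts (37.5%; 21.2 to 57.3) and 2 of 4 noncoding hosts, and in 52.8% of all thresholded peaks with a rank in both lists. Among ribosomal protein genes with no snoRNA gene it was 27 of 46 (58.7%). The intervals include the share of all peaks. RpS29 (5689 in replicate 2 and 1694 in replicate 3) and RpS9 (9868 and 3385) stood higher in replicate 3, and Arpc2 (2651 and 10759) in replicate 2.

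**Figure D4:**
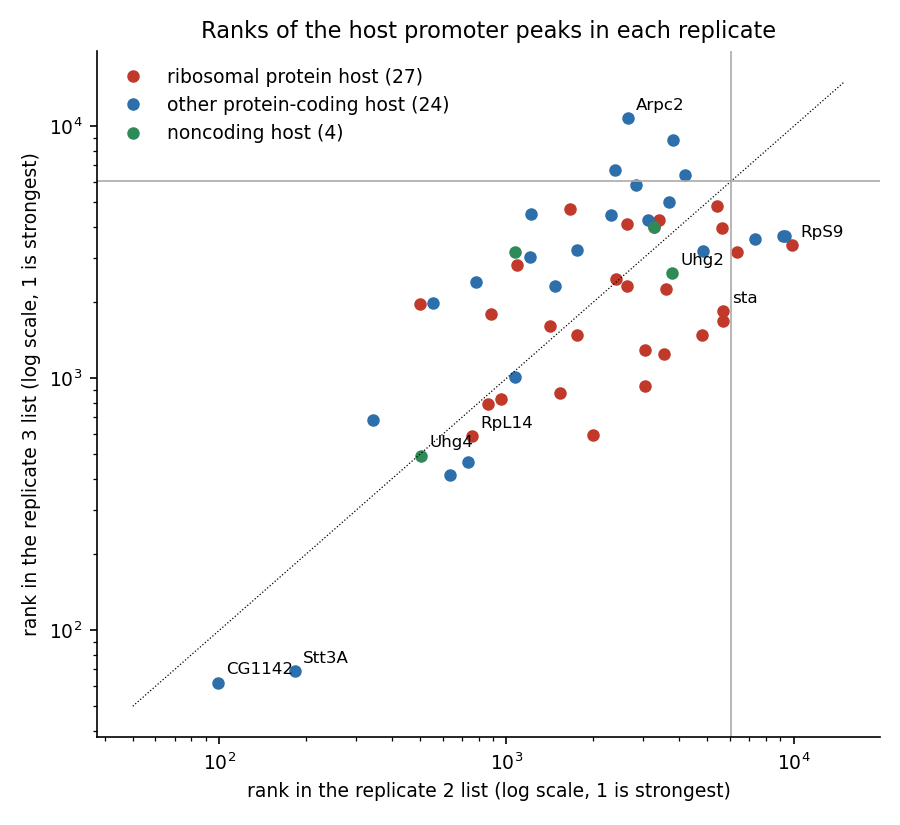
Rank of each host promoter peak in the replicate 2 list (horizontal, log scale) and the replicate 3 list (vertical, log scale), taken from the best-ranked replicate peak it overlaps; the dotted line is equal rank and the grey lines mark rank 6075. Ribosomal protein hosts (27) lie more often below the dotted line, as 18 do, and other protein-coding hosts (24) more often above it.

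The place and base composition of the promoter summits are given as medians, with no test of the differences. In ribosomal protein hosts the median summit was at -41 bp from the TSS, against -120 bp in other protein-coding hosts, -102 bp in the 4 noncoding hosts, -20 bp in ribosomal protein genes without a snoRNA gene and -145 bp in protein-coding genes without one. GC content within 50 bp of the summit had a median of 46.5% (SD 10 over 27 peaks) in ribosomal protein hosts, 42.6% (SD 9.53, 46 peaks) in ribosomal protein genes without a snoRNA gene, 29.7% (SD 9.20, 25 peaks) in other protein-coding hosts, 36.6% (SD 7.89, 4 peaks) in noncoding hosts and 29.7% (SD 9.34) in all 6075 thresholded peaks. Median ranks of the promoter peaks were 2564 for ribosomal protein hosts, 3073 for other protein-coding hosts, 2680 for ribosomal protein genes without a snoRNA gene and 2518 for other protein-coding genes with a promoter peak.

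Promoter motifs were searched from 250 bases before to 50 bases from the gene start on, on both strands, with overlaps between motifs allowed. The gene start is the outermost one, whereas a host has a thresholded summit if any TSS has one, and 46 of the 92 hosts have 2 or more TSSs. For such hosts the window can be another promoter than the one with the peak. The TCT match shown for RpS29 lies outside the stretch searched for TCT here. The DRE (TATCGATA), bound by the factor DREF, was in 19 of 92 host windows (20.7%) and 9.28% of protein-coding genes without a snoRNA gene, in 13 of the 56 hosts with a thresholded summit and in 6 of the 36 without. The TCT motif, the initiator of ribosomal protein genes (CTTT with a pair of pyrimidines on each side, on the sense strand within 10 bases of the start), was in 6 hosts, all of them ribosomal protein hosts with a thresholded summit, against 0.505% of other genes. The E-box CACGTG was in 10 hosts (10.9%, against 4.18%), 4 of them among the 11 noncoding hosts. Core promoter motif 7 was in 11 of 56 hosts with a thresholded summit and 1 of 36 without (9.27% of other genes). Motif 1 (6 hosts, 6.52% against 4.49%), motif 6 (5 hosts, 5.43% against 2.21%), GAGAG (25, 27.2% against 29.7%) and TATAAA (43, 46.7% against 45.8%) were searched as well. In the sequences above, the summit of RpS7 lies 69 bp before its start and the DRE ends at its start base, while in CG1142 the summit lies 171 bp before the start, away from both motif matches. These matches are descriptions of letters in a window. Within 50 bp of the host summits themselves, the DRE was in 4 of 55 windows (7.27%) and in 0.938% of all thresholded summit windows. All host windows are at promoters, while the thresholded windows include peaks elsewhere and have a lower median GC content (29.7% against 37.6%). No share was computed for promoter summits of other genes alone, so hosts and promoters in general cannot be told apart here. GAGAG was in 4 of 55 (7.27%) and 7.97%, and TATAAA in 11 of 55 and 25.9%. The TCT letters, searched here on either strand and anywhere in the window, were in 13 of 55 (23.6%) and 10.1%.

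Genes outside any host intron mostly had a summit near their own start, and for most of them it was below the threshold. Of these 26, 12 lie between genes, 10 lie only over a gene of the opposite strand and 4 overlap a same-strand gene without lying in an intron. Within 500 bp, 19 had a pooled summit (73.1%; 53.9 to 86.3), against 28 of the 243 intronic genes (11.5%; 8.09 to 16.1) and 41.3% of all other genes. In 15 of the 19 the summit was upstream, and the median offset was -165 bp. The peaks were mostly weak, with a median pooled rank of 13874, and the 19 genes share 16 of them. Replicate 3 listed a peak there for 17 genes, replicate 2 for 11 and both for 10. Another gene's TSS lay within 500 bp of the summit for 6 of the 19.

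U3, a C/D RNA needed for the cleavage of pre-ribosomal RNA, has 3 genes here, each outside an intron. U3:9B had a pooled summit 19 bp before its start, but at rank 28929 and with a replicate 3 peak only (rank 21661). U3:54Ab had a summit at -346 bp (pooled rank 13269; 19920 and 9972 in replicates 2 and 3) that lies 29 bp from tRNA:Leu-AAG-1-3, and the nearest summit to U3:54Aa is that same one, 1541 bp upstream. Psi28S-3342 (-24 bp, pooled rank 12715) and Psi18S-301 (-108 bp, 13874) likewise had a replicate 3 peak only, and Psi18S-176 had its summit 18 bp inside the gene (6682). Or-aca4 (-116 bp, pooled rank 13118) ranked higher in replicate 2 (8728) than in replicate 3 (25282). A pooled summit within 500 bp of the start was thus usual for snoRNA genes in no host intron, and the replicates did not list these peaks alike. For 6 of the 19 genes with such a summit, another gene's TSS also lay within 500 bp of it.

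Thresholded summits within 500 bp lay near 5 of the 26 (19.2%; 8.51 to 37.9), an interval that includes the 15.5% of all other genes. Psi28S-1153 and 2 neighbours whose symbols are older map positions lie in a row between genes on 2R (13557539 to 13558055) and share a peak of rank 4766 (8413 in replicate 2 and 4177 in replicate 3), whose summit lies 410, 246 and 41 bp before their starts. Or-ACA6 lies antisense in egr, the gene of the tumour necrosis factor ligand Eiger, with a summit at -486 bp of rank 2774 (2581 and 2861). The gene named 185 had a summit at -222 bp of rank 3986 (7028 and 2729), nearer to tRNA:Glu-TTC-1-5 (157 bp). The same egr peak is nearest to Or-CD13, Or-ACA7 and MeU1b-A234.

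By class, 9 of 114 H/ACA genes (7.89%; 4.21 to 14.3) and 4 of 109 C/D genes (3.67%; 1.44 to 9.06) had a thresholded summit within 500 bp, against 15.5% of all other genes. Within 1000 bp the counts were 16 (14.0%; 8.83 to 21.6) and 25 (22.9%; 16.0 to 31.7), against 19.8%, so the order turned with the window and both intervals include the background. In a host with a thresholded TSS summit lay 74 H/ACA genes (64.9%) and 52 C/D genes (47.7%), against 20.1% of protein-coding genes without a snoRNA gene, though genes that share a host count together. Of the 30 genes with no class, 3 had a thresholded summit within 500 bp, 10 within 1000 bp and 15 at a host TSS. Of 16 scaRNA genes, 0 had a thresholded summit within 500 bp, which allows a share of up to 18.8%, and 2 (12.5%; 3.50 to 36.0) had one within 1000 bp, MeU5-C46 and MeU1b-A234. These values allow the background shares of 15.5% and 19.8%. In all, 6 scaRNA genes (37.5%; 18.5 to 61.4) lay in a host with a thresholded TSS summit. That interval includes the 20.1% of protein-coding genes without a snoRNA gene. They were MeU5-C46, MeU5-U42 in CG12316, MeU4-A65 in anchor, PsiU6-40 in skd, MeU2-G25 in mask and MeU2-C28 in Stt3A. The summits at anchor, skd and Stt3A are nearer to Vps60, Pdss2 and bves.

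Genes of the proteins that build and carry snoRNA particles were read as the rest of the pathway. Of 24 listed symbols 22 matched the annotation, and 10 of these (45.5%; 26.9 to 65.3) had a thresholded TSS summit, against 20.1% of protein-coding genes without a snoRNA gene. In the box C/D core, the methyltransferase gene Fib (rank 4031) and nop5 (1862) had one, and Nop56 and hoip had only pooled ones (8868 and 7901). In the box H/ACA core, Nop60B (3815) and NHP2 (1238) had one, and Gar1 and Nop10 only pooled ones (16806 and 10106). Among assembly and transport factors the strongest were Nufip (86), with its summit 214 bp after the TSS, and the ATPase gene pont (201). Nopp140 (3043), rept (3403), also an ATPase gene, Phax (4794) and coil (5022), which encodes the Cajal body protein coilin, followed. Among those without one, spag (9154) and CG10341 (15817) had a pooled summit, and Nop17l, CG8204 and WDR79, whose product takes scaRNAs to the Cajal body in human cells, had neither. Of the genes listed under the U3 particle (U3-55K, CG11583 and CG13096), 0 of 3 had a TSS summit in the thresholded or the pooled list. Whether each of these products belongs to that particle was not checked. Fib, nop5 and Nop60B are snoRNA hosts as well, so they count on both sides. The Fib summit is nearer to CG3085 (35 bp) than to Fib. With a thresholded summit counted only for the gene with the nearest TSS, 7 of the 22 genes (31.8%) had one, against 14.7%.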

How the data were processed

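The data were 4 peak lists on dm6, 1 for each of replicates 2 and 3, 1 of both pooled and 1 thresholded. The authors' signal value per peak, on a scale not stated, served to order peaks inside each list and nothing else. A −log10 q-value is also deposited and was inspected without being used. The summit was the peak start plus the deposited offset column, recorded as a score per the file headers. The thresholded peaks are all in the pooled list. The notes with the files say that peaks were called against a control alignment. Not given in the sources used here are the aligner, the peak caller and the value of the threshold. Peak lists hold no read totals, so depth is unknown.

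Gene models were those of Ensembl release 115 and sequence was the RefSeq copy of Release 6; coordinates are 1-based. A host is a same-strand gene with a transcript whose intron holds the whole snoRNA gene. Ribosomal protein genes were taken by symbol, leaving out genes named as like them, a choice made after the annotation was seen. A peak's replicate rank is that of the best-ranked replicate peak it overlaps by at least 1 bp. Shares have Wilson 95% intervals, and a count of 0 allows up to 3 counts of the total. With 1 group of 2 libraries, no test between conditions was made. The members, lists, motifs and rules were chosen with earlier results of these data known. Of the snoRNP list, 2 symbols had no match. Genes were named by a rule: every gene within 500 bp of a thresholded summit and its host, the next 10 by signal within 1000 bp, the 12 hosts of highest signal, hosts of 4 or more, all Uhg hosts, U3 and scaRNA genes with a value to give, the snoRNP list and the genes at the window edge; further hosts, hostless genes and RpL15 and RpS9 were named after their values were seen. A gene that the text would otherwise name is not reported here. The counting code was tested on simulated data. Python 3.11.15, numpy 2.4.6, scipy 1.17.1 and matplotlib 3.10.9 were used. Alternatives changed the window, list, replicate, host definition and gene assignment.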

Additional observations from a re-analysis of the deposited data

How the results depend on the processing

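In place of the thresholded list, all pooled peaks gave 47 snoRNA genes within 500 bp (17.5%, against 41.3% of other genes). Within 1000 bp they gave 101 (37.5%, against 49.5%). They gave 16 snoRNP genes (72.7%, against 46.8% of protein-coding genes without a snoRNA gene). The upper 3037 thresholded peaks gave 9 snoRNA genes within 500 bp (3.35%, against 8.85% of other genes), 82 in a host with a TSS summit, 34 hosts (37.0%) and 4 snoRNP genes (18.2%). The share of protein-coding genes without a snoRNA gene was 11.8% there, so the snoRNP genes stood closer to the background than in the whole list. Without the ribosomal protein genes, 29 of 63 hosts (46.0%), noncoding hosts included, had a thresholded TSS summit. Of protein-coding genes that neither carry a snoRNA gene nor encode a cytosolic ribosomal protein, 19.9% had one. Within 50 bp of host summits in place of promoter windows, the motif counts among 55 windows were 4 for the DRE, 1 for the E-box, 4 for GAGAG, 11 for TATAAA, 13 for TCT, 1 for motif 1, 0 for motif 6 and 5 for motif 7. These windows are shorter than the promoter windows except for TCT, where they are longer and were read on both strands in place of the sense strand alone. The leading peaks of a single replicate were also used, leaving out each replicate in turn. They gave 12 to 22 snoRNA genes within 500 bp (4.46% to 8.18%) and 47 to 60 within 1000 bp (17.5% to 22.3%). Other genes gave 15.4% to 16.4% and 19.5% to 20.8%. The same peaks gave 149 to 164 snoRNA genes in a host with a TSS summit. Hosts numbered 52 to 56 (56.5% to 60.9%) and snoRNP genes 9 to 10 (40.9% to 45.5%). The share of protein-coding genes without a snoRNA gene was 20.1% to 21.0%. Of the 56 hosts, 52 remained without replicate 2 and 50 without replicate 3. Counting a summit only for the gene with the nearest TSS, an alternative chosen after seeing the data, gave 48 hosts (52.2%) and 7 snoRNP genes (31.8%). The share of protein-coding genes without a snoRNA gene was 14.7% there. In this count any thresholded peak of a host could count. With only the TSS nearest upstream of the snoRNA gene, 49 hosts (53.3%) and 113 snoRNA genes (42.0%) counted, and no matched background share was computed. No paired analysis was possible because there is 1 group and no test. Depth is unknown, so an unlisted peak does not show that the protein is absent.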

Other observations

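A further 5 genes have snoRNA or scaRNA symbols but the biotype ncRNA and were not counted. They are MeU4:25F-C137, Me28S-C993, Or-ACA9, Or-CD16 and Or-CD17, and their nearest thresholded summits lay between 3301 and 15859 bp away. Or-ACA9, in an intron of AdamTS-A, had a pooled summit 242 bp before its start (rank 7590), and the other 4 had none within 1000 bp. By arm, the genes within 500 bp of a thresholded summit were 7 of 96 on 2R, 2 of 41 on 2L, 3 of 52 on 3L, 2 of 48 on 3R, 2 of 31 on X and 0 of 1 on 4. Of the 28 intronic snoRNA genes with a pooled summit within 500 bp, 18 had that summit within 500 bp of a host TSS.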
